A study of Mus musculus with 6 samples.

Results

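The 9 genes described here were grouped as genes by which splenic CD4+ T cells sense ATP and make, sense or remove adenosine. *P2ry10* is among them by its name, since its product is known to respond to lysophosphatidylserine. The 9 are the ectonucleotidases *Entpd1* and *Nt5e*, the adenosine handling genes *Adora2a*, *Ada*, *Adk* and *Dpp4*, and purine receptor genes *P2rx7*, *P2rx4* and *P2ry10*. They were taken by name from the 45777 genes of the deposited tables, and all 9 passed the filter on low counts, as did 16123 genes in total. The study sequenced bulk RNA of CD4+Lrig1+ and CD4+Lrig1- T cells, to examine the transcriptional state of CD4+ cells that carry the surface protein Lrig1. Both groups were taken from splenocytes of female mice of the inbred strain C57BL/6 at 7 weeks of age, with no treatment or engineered allele named for either group. GEO's labels name 3 samples of each group (6 in total), while the tables used here hold 1 library of each group in set 1 and 1 of each in set 2, 4 libraries in all. The labels do not tie a library to an animal. The study's methods say in general terms that its quantitative data come from independent experiments or samples. The legend of its heatmap of these cell groups gives n = 3 and names at least 3 independent experiments, without tying them to libraries. The p-values thus measure only the spread between these libraries. In the main test below, which has a term for the set, that is how far the sets disagree on the group difference. That spread is estimated in part from other genes.

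ATP that leaves a cell acts as a danger signal through P2X and P2Y receptors. CD39, the product of *Entpd1*, cuts ATP and ADP to AMP, and CD73, the product of *Nt5e*, cuts AMP to adenosine, which dampens T cells through the receptor encoded by *Adora2a*. Regulatory T cells are known for carrying CD39 and CD73 together, while adenosine is removed by deamination (*Ada*) or by phosphorylation inside the cell (*Adk*).

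The libraries held 44865070 to 59977951 estimated counts on genes. Levels are given as CPM, which are counts relative to library size after adjustment by the trimmed mean of M values (TMM), and the main test was edgeR's quasi-likelihood test with a term for the set, at a Benjamini-Hochberg adjusted p under 0.05 over all 16123 genes. *Lrig1* itself, the gene of the surface protein by which the cells were parted, had 221 and 129 CPM in the Lrig1+ libraries against 75.4 and 36.7 in the Lrig1- libraries of set 1 and set 2. The 7 of 7 T cell identity markers were above 0 in every library, with *Cd4* between 924 and 1100 CPM, and 1 of them, *Cd5*, was called higher in Lrig1+ cells (log2 fold change 0.39). The 6 of 6 regulatory T cell markers were called higher in Lrig1+ cells, and their summed level was 2021 to 2275 CPM in the Lrig1+ libraries against 164.7 to 229.7 CPM in the Lrig1- libraries. The 10 B cell markers summed to 102 and 408 CPM in Lrig1+ against 81.9 and 804 CPM in Lrig1- libraries, 6 dendritic cell markers to 14.1 and 12.4 against 57.0 and 55.1, and 6 NK cell markers to 8.06 and 20.0 against 31.8 and 72.5 (set 1 and set 2 in that order); 2 of 10, 3 of 6 and 5 of 6 of these were called lower. The 2 CD8 T cell markers, both called lower, summed to 14.1 and 51.6 against 19.5 and 97.3 CPM. The 9 myeloid markers summed to 39.8 and 175 CPM against 40.0 and 172 (2 called higher, 1 lower), 5 plasma cell markers to 73.1 and 172 against 56.1 and 182, and 4 erythroid markers to 6.73 and 65.1 against 7.35 and 73.3. Of 10 lists, only the plasma cell and platelet lists had markers at 0 in a library, and 2 of the 4 platelet markers (*Ppbp* and *Gp9*) were at 0 in all 4 libraries. The part of these cell types in the results below was not tested, and in bulk RNA fewer cells of a type and less RNA per cell cannot be told apart.

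**Figure D1:**
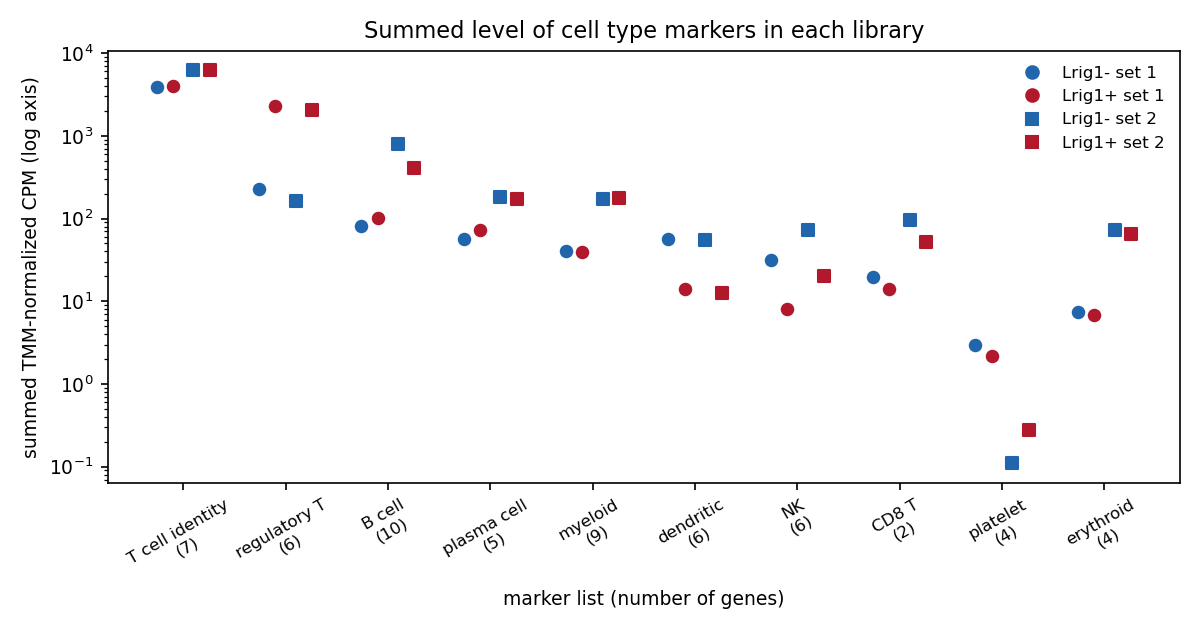
Summed TMM-normalized CPM (log axis) of each marker list in the 4 libraries, with the number of genes of each list in brackets; circles are set 1, squares set 2, red Lrig1+ and blue Lrig1-. The regulatory T cell markers lie at 2021 to 2275 CPM in Lrig1+ and 164.7 to 229.7 CPM in Lrig1- libraries, while dendritic and NK cell markers are lower in the Lrig1+ library of each set, and the B cell markers are higher in set 2 in both groups.

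Of the 9 genes, 6 were called higher in Lrig1+ cells, 0 were called lower and 3 were not called. *Nt5e*, *Entpd1*, *P2rx7* and *Adora2a* rose by more than 1 on the log2 scale, and *P2ry10* and *Adk* by less. Among all genes tested, 14.6% were called higher and 12.8% lower. Both Lrig1+ libraries lay above both Lrig1- libraries for 6 of the 9 genes (*Entpd1*, *Nt5e*, *Adora2a*, *P2rx7*, *P2rx4* and *P2ry10*), against 14.3% of all genes tested, and the ratio of Lrig1+ over Lrig1- was above 1 in both sets for 7 of 9, against 36.5%. The median log2 fold change of the 9 genes was 0.55 (0.61 within set 1 and 0.50 within set 2), and that of all genes tested was -0.04. Without the set term, edgeR's quasi-likelihood test called 0 of the 9 and 0 of the 16123 genes, and 4 of the 9 had an unadjusted p under 0.05, where 4.18% of all genes tested were higher and 1.41% lower at that level. The fit with the set term leaves 1 residual degree of freedom. An exact permutation test of 2 libraries against 2 that ignores the sets could not go below p = 0.333.

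**Figure D2:**
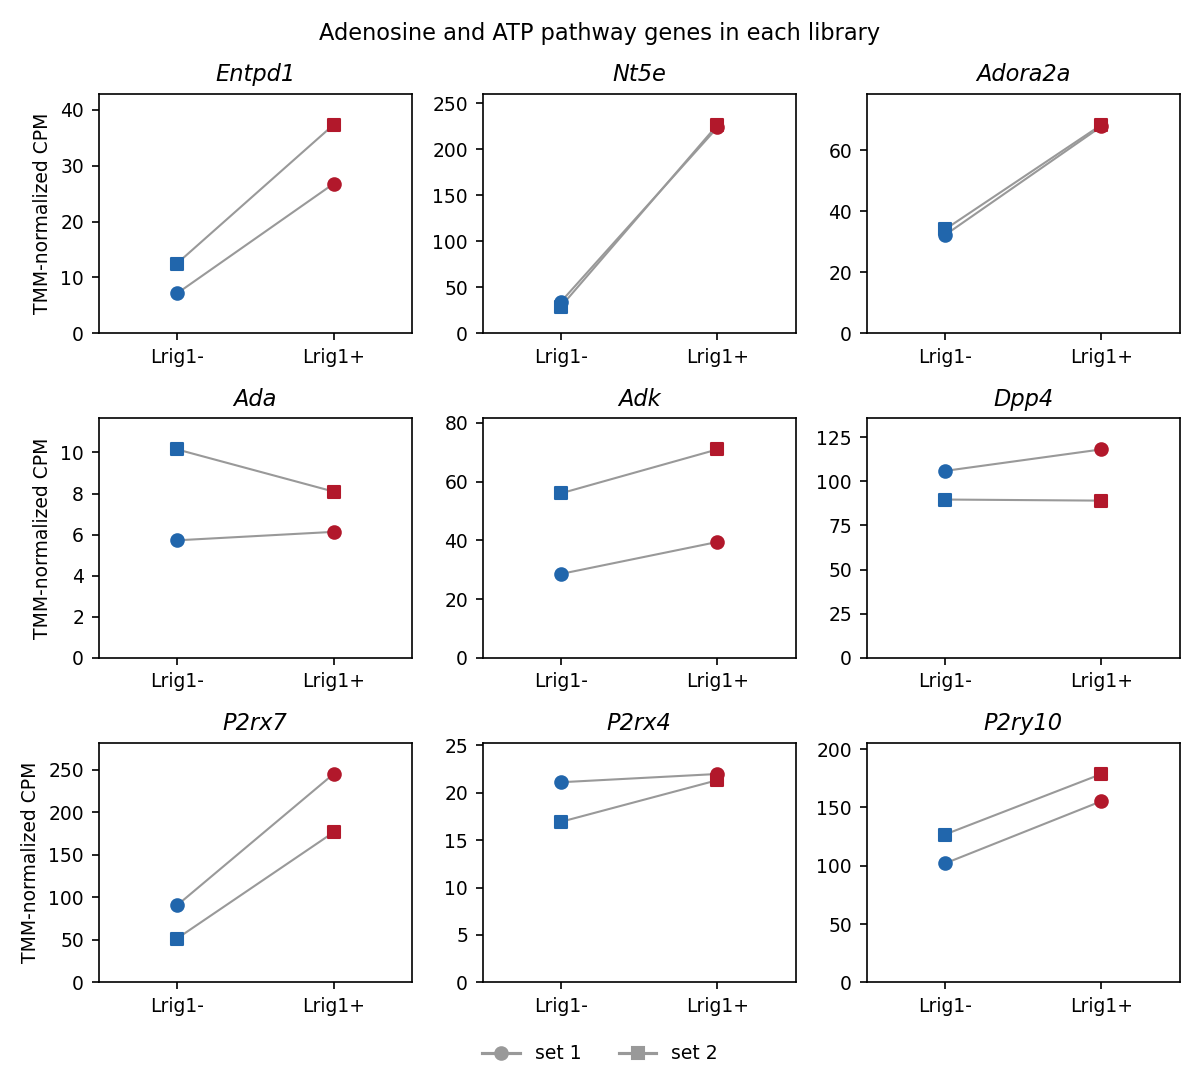
TMM-normalized CPM of each of the 9 genes (linear axis from 0, scaled per gene) in the Lrig1- and Lrig1+ libraries, with a line joining the libraries of 1 set; circles are set 1 and squares set 2. The lines of *Nt5e* run from 34.2 and 29.1 to 224 and 226 CPM, while those of *Ada* slope opposite ways in the sets (from 5.72 to 6.13 and from 10.1 to 8.10 CPM).

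Both ectonucleotidases rose in Lrig1+ cells, and the fold change of *Nt5e* was the highest of the 9 genes. *Nt5e* (gene ID 23959, chr9:88327609-88372089 of GRCm38, + strand), which encodes CD73, had 224 CPM in Lrig1+ and 34.2 CPM in Lrig1- cells of set 1, and 226 CPM in Lrig1+ and 29.1 CPM in Lrig1- cells of set 2. The Lrig1+ libraries were nearly equal, and the groups did not overlap. *Nt5e* rose 7.14-fold (log2 fold change 2.84, SE 0.09, edgeR adjusted p = 4.80e-06), from 1637 and 1569 counts in the Lrig1- libraries to 11630 and 13004 counts in the Lrig1+ libraries. Without the set term the adjusted p was 0.501 (unadjusted p = 7.83e-04). The deposited tables list 1 transcript for it, so its counts do not depend on a split between transcripts. RefSeq's promoter entry for GRCm38.p6 (250 bases before the start and 50 after it) is shown because *Nt5e* moved most of the 9. It holds 71.0% G and C and 23 CpG, against medians of 52.7% and 7 over the 32851 promoters of the table.
Nt5e promoter, chr9:88327359-88327658, + strand: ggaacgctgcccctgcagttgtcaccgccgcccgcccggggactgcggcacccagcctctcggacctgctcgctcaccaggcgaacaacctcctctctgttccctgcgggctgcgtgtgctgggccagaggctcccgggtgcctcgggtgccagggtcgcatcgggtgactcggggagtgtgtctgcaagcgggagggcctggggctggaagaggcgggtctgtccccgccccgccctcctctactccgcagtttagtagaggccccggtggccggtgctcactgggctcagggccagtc

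*Entpd1* (gene ID 12495, chr19:40612366-40741602, + strand) had 26.7 CPM in Lrig1+ and 7.12 CPM in Lrig1- cells of set 1, and 37.3 and 12.5 CPM in set 2. The groups did not overlap, although both set 2 libraries were above their set 1 counterparts. *Entpd1* rose 3.33-fold (log2 fold change 1.74, SE 0.12, edgeR adjusted p = 8.18e-05; 0.674 without the set term), and its log2 ratio was 1.90 within set 1 and 1.58 within set 2. RefSeq gives it starts at 40612366 (transcript variant 1) and, further downstream, between 40659766 and 40660745 (5 transcripts). The upstream start had 0 of 1391, 341, 2143 and 674 counts in the 4 libraries, which allows shares of up to 0.216%, 0.880%, 0.140% and 0.445% (3 counts of the total, counting error only). All the counts of *Entpd1* were thus placed on transcripts with downstream starts in either group. Transcript variant 2, which starts at 40659770, took 20.7% and 27.0% of them in Lrig1+ and Lrig1- cells of set 1 and 17.4% and 36.8% in set 2, while the transcript that starts at 40660159 took 66.7%, 51.9%, 51.7% and 53.6% in the same order. The promoters of variants 1 and 2 are printed because one start had no counts and the other had some, although neither window reaches the start with most counts. That of variant 1 holds 64.0% G and C with 23 CpG, and that of variant 2 48.7% with 10 CpG. A same-strand processed pseudogene inside the *Entpd1* gene, *Gm8783*, had 667 to 1073 counts of its own.
Entpd1 variant 1 promoter, chr19:40612116-40612415, + strand: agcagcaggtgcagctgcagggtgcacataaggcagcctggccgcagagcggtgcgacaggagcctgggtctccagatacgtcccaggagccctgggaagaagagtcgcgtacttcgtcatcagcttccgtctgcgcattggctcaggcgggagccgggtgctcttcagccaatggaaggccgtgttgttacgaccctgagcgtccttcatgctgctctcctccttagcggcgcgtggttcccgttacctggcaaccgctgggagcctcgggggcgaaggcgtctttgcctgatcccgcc
Entpd1 variant 2 promoter, chr19:40659520-40659819, + strand: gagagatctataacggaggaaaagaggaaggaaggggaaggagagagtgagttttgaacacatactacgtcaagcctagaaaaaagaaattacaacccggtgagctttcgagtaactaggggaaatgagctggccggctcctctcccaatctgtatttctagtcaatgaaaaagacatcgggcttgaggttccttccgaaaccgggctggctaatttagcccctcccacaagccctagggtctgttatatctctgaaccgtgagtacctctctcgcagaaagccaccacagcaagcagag

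*Adora2a* (gene ID 11540, chr10:75316877-75334792, + strand), the adenosine receptor that raises cyclic AMP in T cells, had 67.8 and 68.3 CPM in the Lrig1+ libraries against 32.2 and 34.0 CPM in the Lrig1- libraries of set 1 and set 2. Both groups were tight and did not overlap. *Adora2a* rose 2.06-fold (log2 fold change 1.04, SE 0.08, edgeR adjusted p = 1.46e-04; 0.663 without the set term), with log2 ratios of 1.08 and 1.01 in the sets. Most of its counts were on the most upstream starts in every library, with 84.2% in Lrig1+ and 97.0% in Lrig1- cells of set 1 and 95.3% and 87.2% in set 2. That share was lower in Lrig1+ cells in set 1 and higher in set 2. Of the other adenosine receptor genes, *Adora3* had 5 to 13 counts and was not called, *Adora2b* had 0 counts in both Lrig1+ libraries and 4 and 6 counts in the Lrig1- libraries, and *Adora1* had 0 counts in all 4. Of the adenosine receptor genes, *Adora2a* was thus the only one above 13 counts in any library.

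Among the 9 genes, those that remove adenosine had smaller fold changes than those that make or sense it. *Adk* (gene ID 11534, chr14:21052574-21448569, + strand), adenosine kinase, which turns adenosine back into AMP inside the cell, had 39.5 CPM in Lrig1+ and 28.6 CPM in Lrig1- cells of set 1, and 71.0 and 56.0 CPM in set 2. It was higher in Lrig1+ cells within each set, but the groups overlapped across sets, since the Lrig1- library of set 2 exceeded the Lrig1+ library of set 1. *Adk* rose 1.32-fold in the fit with the set term (log2 fold change 0.40, SE 0.08, edgeR adjusted p = 0.0109). The call was lost without the set term (adjusted p = 1.00) and without the filter on low counts (adjusted p = 0.0542).

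*Ada* (gene ID 11486, chr2:163726571-163750239, - strand), adenosine deaminase, which turns adenosine into inosine, had 6.13 CPM in Lrig1+ and 5.72 CPM in Lrig1- cells of set 1, and 8.10 and 10.1 CPM in set 2. The groups overlapped and the sets went opposite ways, with log2 ratios of 0.10 and -0.32. Its log2 fold change was -0.12 (SE 0.16, edgeR adjusted p = 0.636), and it rested on 274 to 548 counts per library, the fewest of the 9 genes in each of them. *Dpp4* (gene ID 13482, chr2:62330073-62412315, - strand), CD26, a surface peptidase that in human cells anchors adenosine deaminase, had 118 CPM in Lrig1+ and 106 CPM in Lrig1- cells of set 1, and 89.0 and 89.6 CPM in set 2. Here too the groups overlapped, and both set 1 libraries were above both set 2 libraries. The log2 fold change of *Dpp4* was 0.07 (SE 0.08, edgeR adjusted p = 0.522). An antisense gene that spans part of *Dpp4*, *Gm13561*, was at 0 counts in all 4 libraries.

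The ATP receptor *P2rx7* and its neighbour *P2rx4* lie side by side on chromosome 5, and 1 of them was called. *P2rx7* (gene ID 18439, chr5:122643927-122692336, + strand) encodes an ATP-gated channel that opens at high ATP and can drive T cells into death. It had 245 CPM in Lrig1+ and 90.6 CPM in Lrig1- cells of set 1, and 176 and 51.6 CPM in set 2. Levels were higher in set 1 in both groups, and the groups did not overlap. *P2rx7* rose 3.04-fold (log2 fold change 1.60, SE 0.10, edgeR adjusted p = 5.32e-05; 0.699 without the set term), with log2 ratios of 1.44 and 1.77. *P2rx4* (gene ID 18438, chr5:122707518-122729739, + strand), an ATP-gated channel that opens at lower ATP, had 22.0 CPM in Lrig1+ and 21.1 CPM in Lrig1- cells of set 1, and 21.3 and 16.9 CPM in set 2. The groups did not overlap, but the Lrig1+ library of set 2 was barely above the Lrig1- library of set 1. Its log2 fold change was 0.20 (SE 0.11, edgeR adjusted p = 0.227).

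*P2ry10* (gene ID 78826, chrX:107088492-107104974, + strand) is named for its likeness to the P2Y nucleotide receptors, but its product is known to respond to lysophosphatidylserine. It had 155 CPM in Lrig1+ and 102 CPM in Lrig1- cells of set 1, and 179 and 127 CPM in set 2. The groups did not overlap. *P2ry10* rose (log2 fold change 0.55, SE 0.07, edgeR adjusted p = 0.00180), with log2 ratios of 0.61 and 0.50, and the call was lost without the set term (adjusted p = 1.00). Its neighbour and near copy *P2ry10b* fell by 0.80 on the log2 scale (SE 0.14, edgeR adjusted p = 0.00581), from 18.2 and 26.5 CPM in Lrig1- to 12.6 and 12.7 CPM in Lrig1+ cells. In FPKM (fragments relative to transcript length and to the mapped fragments of the library), *P2ry10* was 13.3 times *P2ry10b* in Lrig1+ and 6.00 times in Lrig1- cells of set 1, and 15.0 and 5.11 times in set 2. Reads shared by near copies may be divided between them, so the values of this pair are uncertain.

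The *P2rx7* counts were placed mostly on a start inside the gene. RefSeq gives 4 transcripts from 122643927 and transcript variant 5 from 122650383, and mouse *P2rx7* is known to have alternative first exons. Variant 5 took 96.3% of the *P2rx7* counts in Lrig1+ and 98.3% in Lrig1- cells of set 1 (Wilson 95% intervals 95.9% to 96.6% and 97.9% to 98.7%), and 90.8% and 89.5% in set 2 (90.2% to 91.3% and 88.3% to 90.6%). The share was lower in Lrig1+ cells in set 1 and slightly higher in set 2, so it did not separate the groups. In the CPM of the downstream start, the log2 ratio was 1.40 in set 1 and 1.79 in set 2, and in that of the upstream start 2.61 and 1.59. Both starts were thus higher in Lrig1+ cells in both sets, without a test. The promoters of both starts are shown because the *P2rx7* counts were placed on them so unequally. Capitals mark the AP-1 motif TGACTCA on the opposite strand in the upstream promoter and AGATAA, a motif of the GATA factors, on the opposite strand in the downstream one, motifs held by 5.2% and 11.2% of all 32851 promoters on either strand.
P2rx7 upstream promoter, chr5:122643677-122643976, + strand: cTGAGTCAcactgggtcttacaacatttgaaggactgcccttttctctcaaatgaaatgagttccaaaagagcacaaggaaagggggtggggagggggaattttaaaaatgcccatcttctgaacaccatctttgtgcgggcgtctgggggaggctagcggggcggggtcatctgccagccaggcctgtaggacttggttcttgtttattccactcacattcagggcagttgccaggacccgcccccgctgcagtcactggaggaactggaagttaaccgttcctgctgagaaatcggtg
P2rx7 downstream promoter, chr5:122650133-122650432, + strand: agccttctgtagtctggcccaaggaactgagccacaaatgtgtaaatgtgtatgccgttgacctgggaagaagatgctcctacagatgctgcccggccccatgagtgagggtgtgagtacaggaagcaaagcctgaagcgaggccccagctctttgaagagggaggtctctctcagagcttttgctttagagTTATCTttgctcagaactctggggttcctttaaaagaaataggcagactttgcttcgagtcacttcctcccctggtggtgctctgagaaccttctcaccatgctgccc

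*Adk* also had counts on a pair of starts, and here the share was higher in Lrig1+ cells in both sets. The downstream start, between 21075940 and 21076152, took 71.2% of the *Adk* counts in Lrig1+ and 64.2% in Lrig1- cells of set 1 (Wilson 95% intervals 69.2% to 73.1% and 61.6% to 66.7%), and 66.9% and 55.8% in set 2 (65.5% to 68.4% and 54.1% to 57.6%). The difference was 6.97 percentage points in set 1 and 11.1 in set 2, and the intervals, which cover counting error only, did not overlap within either set. The Lrig1- library of set 1 and the Lrig1+ library of set 2 lay close together. In CPM, the downstream start had log2 ratios of 0.61 and 0.60 in the sets, and the upstream start 0.15 and -0.08. Tested as transcripts with the set term, *Adk* variant 2 from the downstream start had a log2 fold change of 0.63 (SE 0.15, edgeR adjusted p = 0.881, unadjusted p = 0.0419) and variant 1 from the upstream start one of 0.06 (SE 0.21, adjusted p = 0.963). The split of reads between transcripts is an estimate by StringTie, and that test called 0 of 45339 transcripts. On the downstream start of *P2ry10* the shares were 84.4% and 86.2% in Lrig1+ and Lrig1- cells of set 1 (Wilson 95% intervals 83.6% to 85.2% and 85.3% to 87.2%, which lay just apart) and 93.5% and 93.1% in set 2 (93.0% to 94.0% and 92.4% to 93.6%, which overlapped). The *Adk* promoters are shown because the estimated share of counts differed between the groups within each set. They hold 61.7% G and C with 21 CpG upstream and 75.0% with 33 CpG downstream.
Adk upstream promoter, chr14:21052324-21052623, + strand: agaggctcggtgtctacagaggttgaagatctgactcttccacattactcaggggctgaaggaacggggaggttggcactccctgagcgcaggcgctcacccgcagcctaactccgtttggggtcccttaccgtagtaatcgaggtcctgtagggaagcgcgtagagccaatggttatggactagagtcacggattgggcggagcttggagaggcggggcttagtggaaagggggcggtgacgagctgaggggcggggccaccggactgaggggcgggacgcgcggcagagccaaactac
Adk downstream promoter, chr14:21075902-21076201, + strand: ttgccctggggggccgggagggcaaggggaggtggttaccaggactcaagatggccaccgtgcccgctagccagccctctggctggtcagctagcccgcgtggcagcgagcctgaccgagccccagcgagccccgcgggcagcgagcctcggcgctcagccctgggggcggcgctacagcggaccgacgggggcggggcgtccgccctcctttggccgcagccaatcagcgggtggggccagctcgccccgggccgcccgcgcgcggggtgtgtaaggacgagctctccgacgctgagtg

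**Figure D3:**
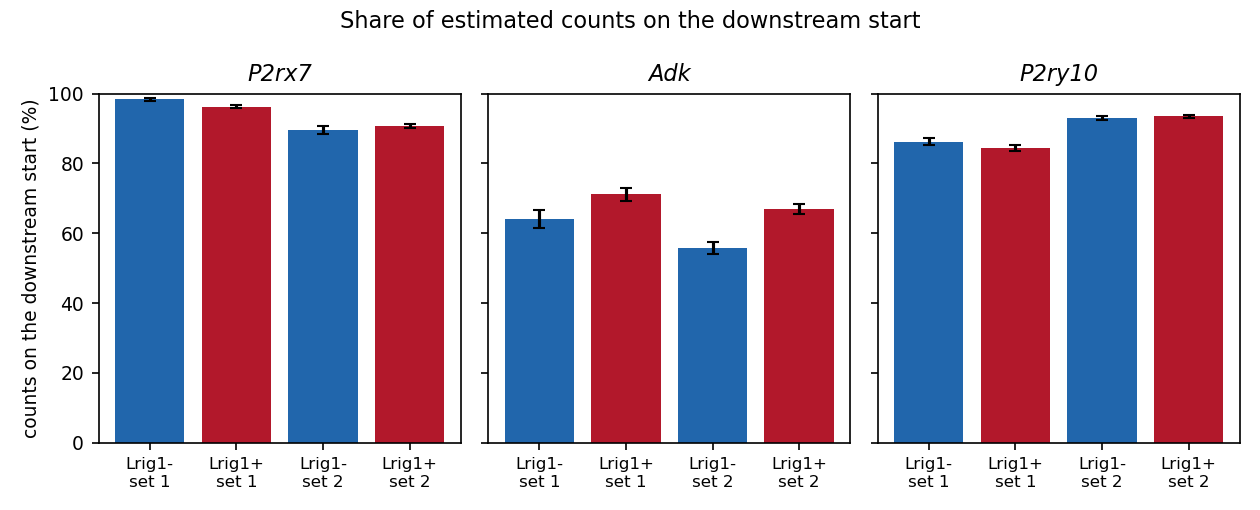
Share (%) of the estimated counts of *P2rx7*, *Adk* and *P2ry10* on the downstream start in each library, with Wilson 95% intervals for counting error; red is Lrig1+ and blue Lrig1-. For *Adk* the share is higher in Lrig1+ cells in each set (71.2% against 64.2% and 66.9% against 55.8%), while for *P2rx7* and *P2ry10* it differs more between sets than between groups.

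RefSeq's promoter table matched 8 of the 9 genes, with 12 promoters in all; *Adora2a* had no entry. Motifs were searched by their letters on both strands. The AP-1 and GATA motifs are spelled out above. The forkhead motif was searched as TGTTTAC, which 3.65% of all promoters hold. For ETS factors the letters were CCGGAAG, held by 8.86% of all promoters. Of the 12 promoters, 5 held one or more of them. Beside the pair in *P2rx7*, GATA matched in the promoters of *Dpp4* and of the upstream start of *P2ry10*, and ETS matched at 2 places in the promoter of *Ada*, with no overlap between matches. The promoters of *Nt5e*, *Entpd1*, *Adk* and *P2rx4* held none of the 4 motifs, and the forkhead letters were in 0 of the 12. The promoters of *P2ry10* held 42.3% and 39.3% G and C, against the 71.0% of *Nt5e*, so the genes that rose did not share a base composition.

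Between genes, levels were compared in FPKM, which is per length. In Lrig1+ cells *Nt5e* was the highest of the 9 at 58.6 ± 2.09 FPKM (SD, n = 2), followed by *P2ry10* (55.1 ± 2.82), *P2rx7* (42.3 ± 11.7), *Adk* (28.1 ± 10.3), *Adora2a* (24.8 ± 1.23), *Dpp4* (20.1 ± 6.42), *P2rx4* (7.50 ± 0.514), *Entpd1* (6.95 ± 1.26) and *Ada* (3.87 ± 0.590). In that order, the ranges of neighbours were apart only between *P2ry10* and *P2rx7*, between *Dpp4* and *P2rx4* and between *Entpd1* and *Ada*. In Lrig1- cells the order was *P2ry10* (36.3 ± 2.17 FPKM), *Adk* (20.6 ± 7.75), *Dpp4* (18.3 ± 5.08), *P2rx7* (13.9 ± 6.54), *Adora2a* (11.7 ± 0.527), *Nt5e* (8.01 ± 1.64), *P2rx4* (6.44 ± 1.63), *Ada* (4.12 ± 1.27) and *Entpd1* (2.04 ± 0.612). There, neighbours were apart between *P2ry10* and *Adk*, *Adora2a* and *Nt5e*, *P2rx4* and *Ada*, and *Ada* and *Entpd1*. By mean FPKM *Nt5e* was thus rank 6 of 9 in Lrig1- and rank 1 in Lrig1+ cells, where it was level with *P2ry10* in set 2 (57.1 FPKM each), and *Entpd1* was low in both groups even though it rose.

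Ratios within a library set paired steps of the pathway side by side on the FPKM scale. The ratio of *Nt5e* over *Entpd1*, the enzymes that act one after the other, was 9.92 in Lrig1+ and 5.71 in Lrig1- cells of set 1, and 7.29 and 2.77 in set 2. The ratio of *Adk* over *Ada*, which compete for adenosine, was 6.04 and 4.69 in set 1, and 8.26 and 5.19 in set 2. The ratio of *P2rx7* over *P2rx4* was 6.43 and 2.44 in set 1, and 4.77 and 1.75 in set 2. For each of the 3 ratios, both Lrig1+ libraries lay above both Lrig1- libraries. In each pair the gene on top had the larger log2 fold change. The higher ratios in Lrig1+ cells thus restate the fold changes given above. These ratios were not tested.

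The wider purine pathway was mixed. Of 61 further genes listed by hand, 59 were in the tables and 41 passed the filter on low counts. Of these 41, 13 were called higher, 10 lower and 18 were not called (14.6% and 12.8% of all genes tested were called higher and lower), with a median log2 fold change of 0.11 beside the -0.04 of all genes tested. Without the set term 0 were called, and 5 had an unadjusted p under 0.05. Without the filter on low counts the calls were 5 higher and 4 lower. The listed genes with 0 counts in all 4 libraries numbered 9, among them *Entpd8*, *Enpp3*, *P2rx2*, *P2rx6* and *Panx3*.

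Among the other genes listed by hand with the ectonucleotidases, 3 rose and 3 fell (14.6% and 12.8% of all genes tested). Where in the cell their products act was not examined. *Enpp2*, the lysophospholipase autotaxin, rose by a log2 fold change of 1.87 on 11 to 96 counts, *Alpl*, the tissue-nonspecific alkaline phosphatase, by 2.74 on 7 to 253 counts, and *Enpp1*, which cuts ATP to AMP and pyrophosphate, by 0.45. *Entpd5* fell by 0.94, *Entpd6* by 0.37 and *Acpp*, a phosphatase that also makes adenosine from AMP, by 1.17 on the log2 scale. The cytosolic nucleotidase *Nt5c3* fell by 0.29. *Nt5c*, another cytosolic nucleotidase, had the highest mean FPKM of the listed genes that were not called, with a log2 fold change of 0.16 (edgeR adjusted p = 0.139).

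Of the 9 tested genes of adenosine and inosine metabolism, 5 rose and 3 fell (14.6% and 12.8% of all genes tested). The 5 that rose were higher in Lrig1+ cells within each set, but their groups overlapped across the sets (*Pnp* had 50.9 CPM in Lrig1- cells of set 2 and 32.8 CPM in Lrig1+ cells of set 1). *Pnp*, which splits inosine to hypoxanthine, rose by a log2 fold change of 0.71 and its near copy *Pnp2* by 0.94, and reads shared between them may be divided. *Aprt*, which salvages adenine, rose by 0.39, *Ahcy*, which splits adenosylhomocysteine to adenosine and homocysteine, by 0.37, and the AMP deaminase *Ampd2* by 0.36. The AMP deaminases *Ampd1* and *Ampd3* fell by 2.29 and 0.45 on the log2 scale, and *Adal*, an adenosine deaminase-like gene, fell by 0.46. *Ampd1* had 23.5 and 19.1 CPM in the Lrig1- and 6.35 and 2.89 CPM in the Lrig1+ libraries of set 1 and set 2, with no overlap. *Hprt*, the hypoxanthine salvage enzyme, was not called (log2 fold change 0.05, edgeR adjusted p = 0.614).

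Of 5 tested nucleoside transporter genes, 1 rose (14.6% of all genes tested). *Slc29a1*, the equilibrative transporter ENT1 through which adenosine crosses the membrane, had 95.7 CPM in Lrig1+ and 32.0 CPM in Lrig1- cells of set 1, and 125 and 44.5 CPM in set 2. Its groups did not overlap, and it rose 2.90-fold (log2 fold change 1.54, SE 0.07, edgeR adjusted p = 2.19e-05; 0.639 without the set term). *Slc28a2*, a concentrative nucleoside transporter, had a log2 fold change of -0.19 (edgeR adjusted p = 0.295). In FPKM the ratio of *Slc29a1* over *Slc28a2* was 0.550 in Lrig1+ and 0.201 in Lrig1- cells of set 1, and 1.33 and 0.376 in set 2.

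Of the 6 tested P2Y genes beyond *P2ry10*, 1 rose and 2 fell (14.6% and 12.8% of all genes tested). *P2ry1*, an ADP receptor, rose by a log2 fold change of 2.02 on 20 to 101 counts, while *P2ry14*, a UDP-glucose receptor, fell by 1.31 and *P2ry10b* as given above. Of the 5 further P2X genes 1 passed the filter, *P2rx3* with 0 to 19 counts, and it was not called. Among genes of ATP release, *Slc17a9*, the vesicular nucleotide transporter, fell by 0.33, and the channel gene *Panx1* had a log2 fold change of 0.04 (edgeR adjusted p = 0.693).

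Of the 4 tested genes listed for enzymes that use NAD outside the cell, 3 rose and 0 fell (14.6% and 12.8% of all genes tested). *Art2b*, an ADP-ribosyltransferase known to gate P2X7 on mouse T cells with NAD as its substrate, had 162 and 190 CPM in Lrig1+ against 130 and 141 CPM in Lrig1- cells of set 1 and set 2, and rose by a log2 fold change of 0.37 (SE 0.07, edgeR adjusted p = 0.00991). Its near copy *Art2a* rose by 1.61 on far fewer counts (114 to 735), and reads shared between them may be divided. *Cd38*, an enzyme that consumes NAD, was called higher with a log2 fold change of 0.92 (SE 0.27, edgeR adjusted p = 0.0410). Its log2 ratio was 1.65 in set 1 and 0.31 in set 2, and its groups overlapped.

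**Figure D4:**
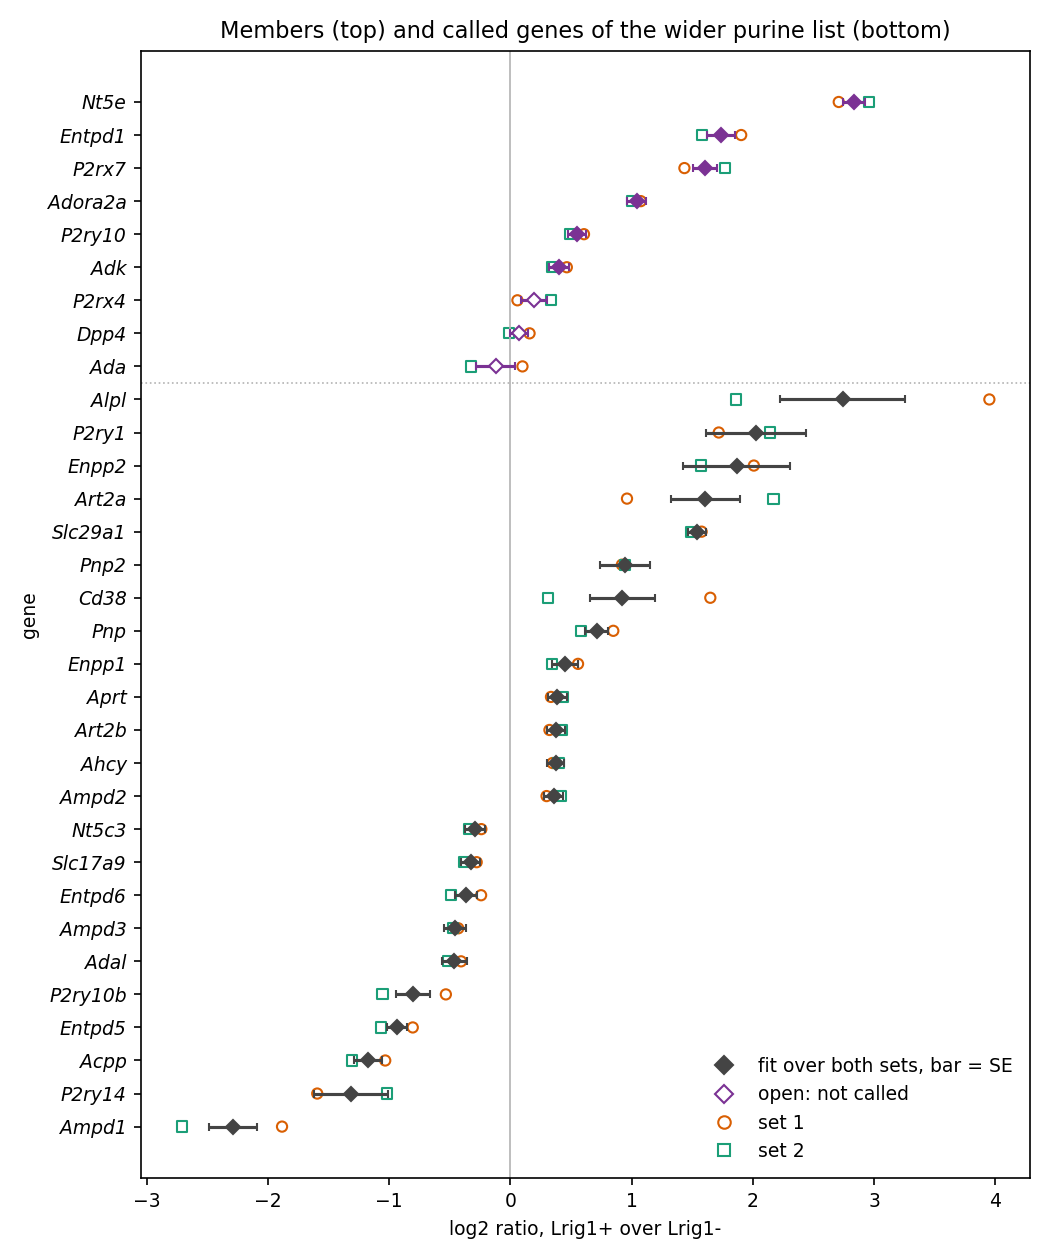
Log2 ratio of Lrig1+ over Lrig1- for the 9 genes (above the dotted line) and for the 23 called genes of the wider purine list (below it); diamonds are the edgeR fit over both sets with bars of 1 SE, filled where called, and circles and squares are set 1 and set 2. The values run from 2.84 for *Nt5e* to -0.12 for *Ada* among the 9 and from 2.74 for *Alpl* to -2.29 for *Ampd1* in the wider list. For *Alpl*, *Cd38* and *Art2a* the sets lie far apart.

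The genes most like each of the 9 over the 4 libraries were looked up among the 8831 genes tested with a mean CPM of at least 10, by the Euclidean distance between centred log2 CPM. The nearest to *Nt5e* were *Gpr83* (distance 0.231 log2 units) and *Stx11* (0.237), and to *Entpd1* they were *Wls* (0.190) and *Sdcbp2* (0.210). For *P2rx7* they were *Kctd17* (0.108) and *Synj2* (0.137), and for *Adora2a* they were *Larp1b* (0.0585) and *A430093F15Rik* (0.0933). None of the 9 was among the nearest genes of another. The nearest genes of the others were *Got2* and *Yipf1* for *Adk*, *Pars2* and *Jkamp* for *Ada*, *Nek9* and *4930481A15Rik* for *Dpp4*, *Wdr83* and *Borcs8* for *P2rx4* and *Ubox5* and *Sla* for *P2ry10*, all within 0.0614 log2 units. With 4 libraries such likeness is a description.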

How the data were processed

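The data are bulk RNA-seq of mouse splenic CD4+ T cells isolated as Lrig1+ or Lrig1-. Per the submitters' processing notes, Trimmomatic 0.38, HISAT2 2.1.0, Bowtie2 2.3.4.1 and StringTie 2.1.3b were used with GRCm38 (mm10). The libraries were made with a stranded kit, and whether counting used the strand is not given in the sources used here. Estimated counts per RefSeq transcript were made by the authors with StringTie and deposited without normalization, beside FPKM values, which the authors scaled by transcript length and mapped fragments. The deposited transcript lengths were used for isoforms only. The 6 per-sample columns of a further table were not used here, since their names do not give the group.

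Estimated counts of 129299 transcripts were summed per gene and then rounded to whole numbers (44865070 to 59977951 per library). In R 4.3.3, edgeR 4.0.16 was applied with filterByExpr, TMM and the quasi-likelihood test, with the set (the table that holds the library) as a term. A prior count of 2 was used for log2 ratios inside each set. The columns carry no replicate numbers, and each set pairs 1 library of each group. Within a set, deviations from the group means correlated at 0.883. With 2 libraries in each group, this value is the same for both sets by construction. It reflects the difference between the sets that both groups share. The SE was derived from the F statistic. Alternatives used DESeq2 1.42.0 and limma 3.58.1. The procedure was run on simulated data, where the sign and size of planted fold changes were checked. The simulation gave every gene the same spread beyond counting error and gave both sets the same group difference. It therefore cannot show how often these libraries give false calls. Files were read with Python 3.11.15.

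The members, the set term, the wider purine list, the marker lists and the motifs were chosen with earlier results of these data known. The genes named are the 9 members, the called genes of the purine list and its 3 uncalled genes of highest mean FPKM, the 2 genes nearest to each member, and checks. The other adenosine receptors, *Panx1*, *P2rx3*, the overlapping genes *Gm8783* and *Gm13561* and the listed genes at 0 were named after their values were seen.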

Additional observations from a re-analysis of the deposited data

How the results depend on the processing

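The fit without the set term called 0 genes higher or lower, 0 of the 9 and 0 of the wider purine list. At an unadjusted p under 0.05 edgeR gave 674 higher and 227 lower genes. Transcripts in place of genes gave 0 calls throughout (1216 higher and 951 lower at an unadjusted p under 0.05). Without the filter on low counts, 1304 genes were called higher and 820 lower, 5 and 4 of them in the wider list, and *Adk* was lost. limma on log2(FPKM + 1) called 1016 genes lower, 4 of them in the wider list. At an adjusted p under 0.01, 1396 genes were higher and 916 lower, 7 and 4 of them in the wider list. Of the 9 genes, 5 were higher at that level, and *Adk* was lost (edgeR adjusted p = 0.0109). Leaving out 1 library is possible only without the set term: 1 to 88 genes were then called higher and 0 to 2 lower, with 0 of the 9 and 0 of the wider list. In these fits the log2 fold change of *Ada* ranged from -0.47 to 0.32, that of *Adk* from -0.11 to 0.96 and that of *Dpp4* from -0.11 to 0.27: *Ada* turned to 0.07 without the Lrig1+ library of set 1 and to 0.32 without the Lrig1- library of set 2, *Dpp4* to -0.11 and -0.03 without the same libraries, and *Adk* to -0.11 without the Lrig1+ library of set 2. With the set term kept, leaving out 1 library leaves the log2 ratio of the other set and no test. The cause was not tested. DESeq2's size factors, its Wald test, at least 10 counts in every library and limma on log2(FPKM + 0.1) called 6 of the 9 higher. *P2rx4*, *Dpp4* and *Ada* were called in none of the fits. *Ada*, with 274 to 548 counts per library, had the largest SE of the 9.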
